A study of Mus musculus with 12 samples.

Results

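Heat shock proteins and co-chaperones, the folding machinery of the cell, were examined in mouse kidney tubules sorted by green fluorescence. The set holds every gene whose name on the array begins with Hsp or Dnaj or is one of Bag1 to Bag6, with the matrix protein Hspg2 left out. It comprises 69 genes measured by 131 probes, of 27597 genes and 41174 probes in all, and 61 of the 69 could be tested. The array gives 3 of them under older names, Hsp110 for Hsph1, Dnajc3a for Dnajc3 and Dnajb10 for Dnajb2. A further match, Hspc171, is now called Tmem208 and is not a heat shock protein, so 68 genes belong to the family. The members Dnajb13, Dnajb7, Dnajb8, Dnajc5b, Dnajc5g, Hspa1l, Hspb3 and Hspb6 were not tested, since fewer than 4 of the 12 arrays had a probe of theirs well above background.

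Tubules in suspension had been passed through a COPAS instrument, a flow sorter for large particles, and collected as fluorescent tubules (EGFP+), tubules without fluorescence (EGFP-) and the whole suspension (ALL). The EGFP+ tubules are labelled as distal convoluted tubules (DCT), the nephron segment in which thiazide diuretics block salt uptake. Each of 4 mice gave all 3 fractions, so n = 4 per fraction and the fractions of a mouse are paired; mice 1 and 3 were female and mice 2 and 4 male. The sources used here give no strain, age, treatment or promoter behind EGFP. Levels are log2 processed intensities minus the 75th percentile of the array, so that 0 is the upper quartile of an array. The 4 values listed in a row belong to mice 1, 2, 3 and 4, and a level is not compared between genes.

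Heat shock proteins hold unfolded proteins and let them fold. Hsp70 proteins (the Hspa genes) do so in a cycle of ATP use that J proteins (the Dnaj genes) start and that nucleotide exchange factors, among them the Bag proteins and the Hsp110 relatives of Hsp70, complete. Hsp90 proteins act later on kinases and steroid receptors, small heat shock proteins (Hspb) keep aggregates soluble, and separate sets serve the endoplasmic reticulum and the mitochondria. Some members are made at all times, while others are switched on by the factor Hsf1 through heat shock elements in their promoters when proteins unfold, and those of the endoplasmic reticulum by its own stress response. In the kidney, the inducible members are known for their response to ischaemia and to the high solute of the medulla.

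The promoters of the members below are shown because they carry these elements, and because the genes behind them did not take a shared direction in the sorted tubules. Promoters of 56 of the 69 members, 250 bases before to 50 bases after the start, were found in RefSeq (GRCm38.p6). A pair of inverted heat shock units is written GAANNTTC or TTCNNGAA and is the same on both strands. The pair lay in a promoter of 16.973% of 27025 genes and of 15 of the 56 members. Of 8 stress-induced members with a promoter entry, 7 had it, namely Bag3, Dnaja1, Dnajb4, Hspa1a, Hspb1, Hspb8 and Hsph1, and Dnajb1 did not. In the form with 3 units, which contains the pair, TTC, GAA and TTC follow each other with NN between them on either strand. This form lay in a promoter of 0.662% of genes and in those of Dnajb6, Hspd1, Hspe1 and Hsph1. The endoplasmic reticulum stress element is CCAAT and CCACG with 9 bases of any kind between them on either strand. It lay in a promoter of 0.137% of genes and in those of Hspa5, Hsp90b1 and Dnajc3. A match is a description of the letters and not a bound site. The 60-base stretches below run 5′ to 3′ on the strand of the gene, with the matched element in capitals. Those of Hspa1a (chr17:34972227-34972286, minus strand), Hspb1 (chr5:135887776-135887835, plus), Dnaja1 (chr4:40722318-40722377, plus), Dnajb4 (chr3:152193846-152193905, minus), Dnaja4 (chr9:54699443-54699502, plus) and Hspd1 (chr1:55088041-55088100, minus) hold heat shock units. Hspe1 starts on the other strand beside Hspd1 and shares that stretch. Those of Hspa5 (chr2:34772004-34772063, plus) and Dnajc3 (chr14:118937806-118937865, plus) hold the stress element of the endoplasmic reticulum.
Hspa1a: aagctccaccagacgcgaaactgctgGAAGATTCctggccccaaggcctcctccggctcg
Hspb1: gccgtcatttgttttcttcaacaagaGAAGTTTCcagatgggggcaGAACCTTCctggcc
Dnaja1: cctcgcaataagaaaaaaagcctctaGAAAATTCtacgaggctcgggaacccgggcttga
Dnajb4: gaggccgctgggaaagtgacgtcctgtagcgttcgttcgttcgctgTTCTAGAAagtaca
Dnaja4: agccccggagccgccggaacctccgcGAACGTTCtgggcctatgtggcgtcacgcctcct
Hspd1: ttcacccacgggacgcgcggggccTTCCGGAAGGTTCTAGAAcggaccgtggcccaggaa
Hspa5: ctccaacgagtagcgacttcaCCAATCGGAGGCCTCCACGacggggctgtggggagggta
Dnajc3: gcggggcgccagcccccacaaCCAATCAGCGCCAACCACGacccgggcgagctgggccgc

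The sort was checked on marker genes fixed as lists. All 5 DCT markers were higher in EGFP+ than in EGFP- tubules, and all 7 proximal tubule, 5 podocyte, 7 endothelial, 3 principal cell, 4 leukocyte and 3 erythroid markers were lower. Of 7 markers of smooth muscle and stroma 6 were lower, and of 4 markers of the thick ascending limb 3 were higher and 1 was lower. The 75th percentile of the processed intensity lay between 922.2 and 2269.8 on the 12 arrays, and 53.9% to 65.6% of probes were well above background. The number of arrays limits the precision of every value below. In these bulk samples, fewer cells of a type and less RNA per cell cannot be told apart.

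The question of the main comparison was how the fluorescent tubules differ from the remaining tubules of the same kidneys. Of the 61 tested members, 18 were higher and 13 lower in EGFP+ than in EGFP- tubules (limma, Benjamini-Hochberg adjusted p below 0.05 over 17071 genes), and 30 did not pass. That is 50.8% of members beside 58.2% of all genes tested, of which 32.3% were higher and 25.9% lower. The median difference of the members was 0.07 on the log2 scale and that of all genes 0.11. The values of 27 members did not overlap between the fractions (44.3%, beside 55.8% of all genes). All 31 differences had the same direction in every mouse with a value for both fractions. In 30 of them, those with values on all 3 slides, they also had it within each slide. The calls came from these same arrays, so neither count is separate support. With the mouse as a block, as the pairing allows, 24 members were higher and 17 lower (67.2%, beside 65.3% of all genes). The members therefore moved in both directions and about as often as genes in general.

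**Figure D1:**
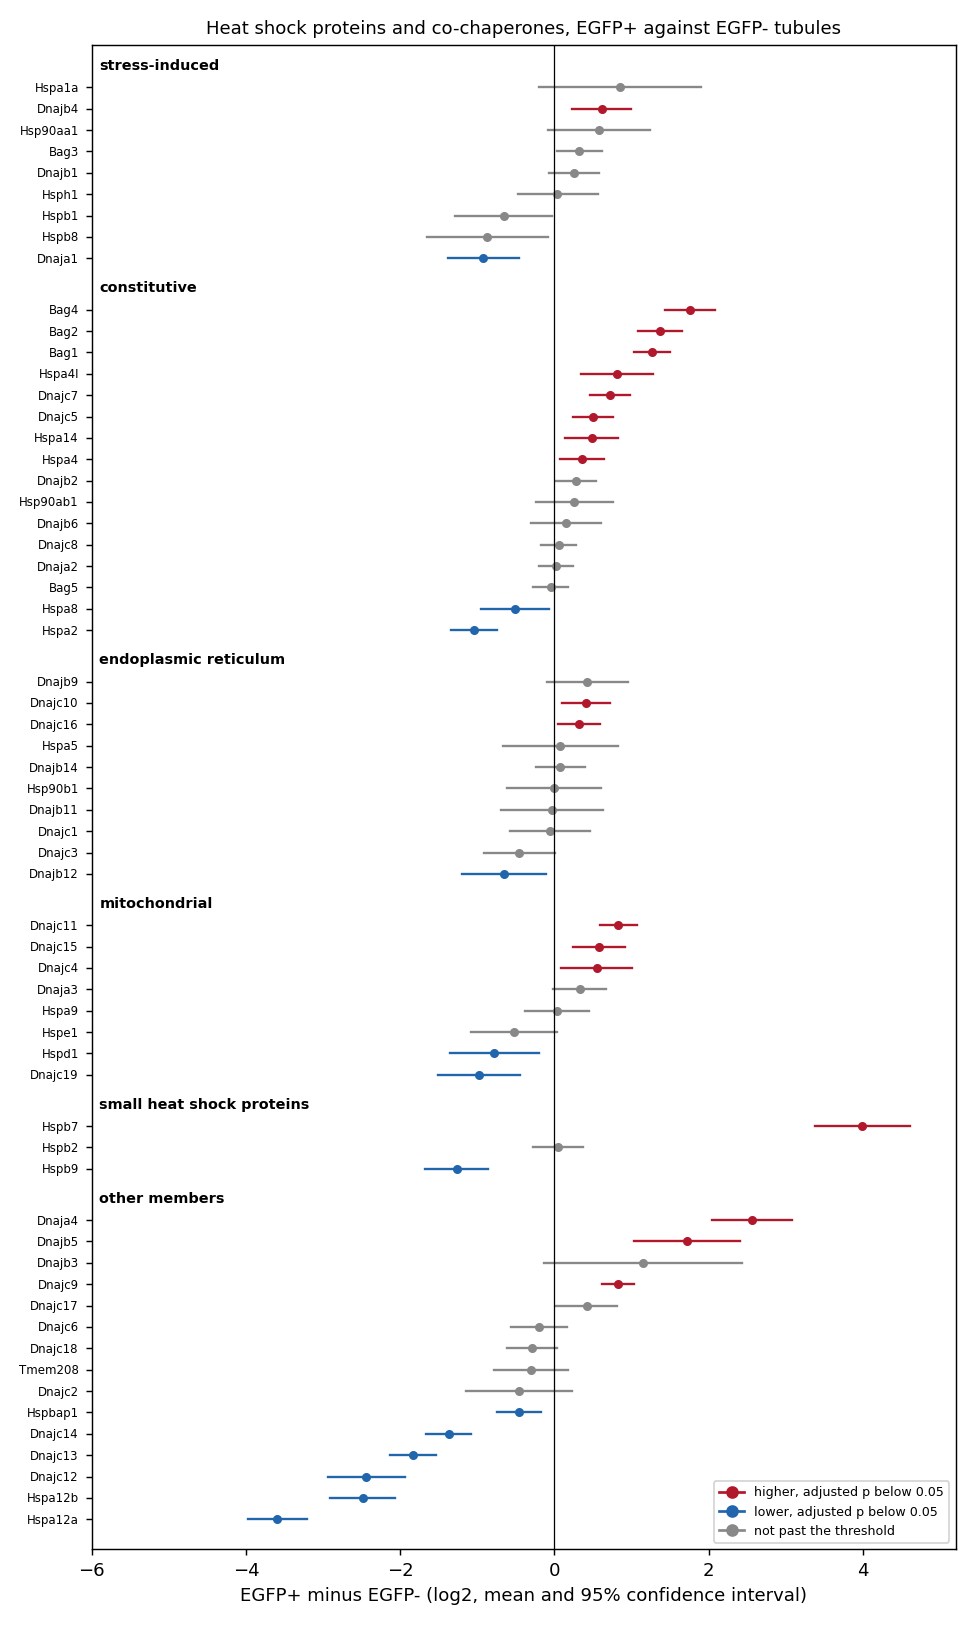
Difference between EGFP+ and EGFP- tubules on the log2 scale (x axis) for the 61 tested members, grouped by role, with points for the fitted mean and bars for the 95% confidence interval over 4 mice per fraction. Hspb1 and Hspb8, which are also small heat shock proteins, are drawn among the stress-induced members. Hspa12a at -3.59 marks the lower end. The point of Hspb7 at the upper end is drawn at its measured 3.99, but 0 of 4 EGFP- arrays had the probe well above background, so that at least 7.27-fold is the value to read. Most stress-induced and endoplasmic reticulum members lie between -1 and 1.

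The Bag proteins, which release ADP from Hsp70, gave the highest group median. Of 5 tested members 3 were higher in EGFP+ tubules and none was lower, beside 32.3% of all genes higher and 25.9% lower. The median difference of these 5 was 1.26 beside 0.11 for all genes. Bag6, which the array lists as Bat3, is outside the set and these figures. It differed by 0.25 ± 0.15 and did not pass (adjusted p = 0.17, limma), so counting it would lower the median. Bag4, which also binds the receptor of tumour necrosis factor, stood at 1.22, 1.07, 1.12 and 1.01 in EGFP+, -0.20, -0.23, -0.19 and -0.71 in ALL and -0.48, -0.84, -0.45 and -0.83 in the EGFP- fraction. Its EGFP+ values lay above those of both other fractions in every mouse. The difference of 1.76 ± 0.15 (SE) was 3.38-fold (95% confidence interval 2.70 to 4.21, adjusted p = 8.5e-07, limma). Its probe lies on chromosome 8 at 27233209 to 27233268 (mm8). Bag2, which restrains the ubiquitin ligase that works with Hsp70, stood at 1.93, 1.91, 1.93 and 1.84 in EGFP+ and 0.27, 0.47, 0.53 and 0.86 in EGFP- tubules. These groups did not overlap either, and Bag2 was 2.58-fold higher (2.12 to 3.14). Bag1, whose protein links Hsp70 to the proteasome, was at 4.29, 4.15, 4.19 and 4.20 in EGFP+, 2.92, 3.28, 3.17 and 2.98 in ALL and 2.84, 3.09, 2.94 and 2.89 in the EGFP- fraction. No EGFP+ value of Bag1 came near those of the other fractions, and the gene was 2.40-fold higher (2.04 to 2.83, adjusted p = 1.0e-06, limma). Bag5 did not pass (-0.05 ± 0.10), and Bag3 is described with the stress-induced members.

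**Figure D2:**
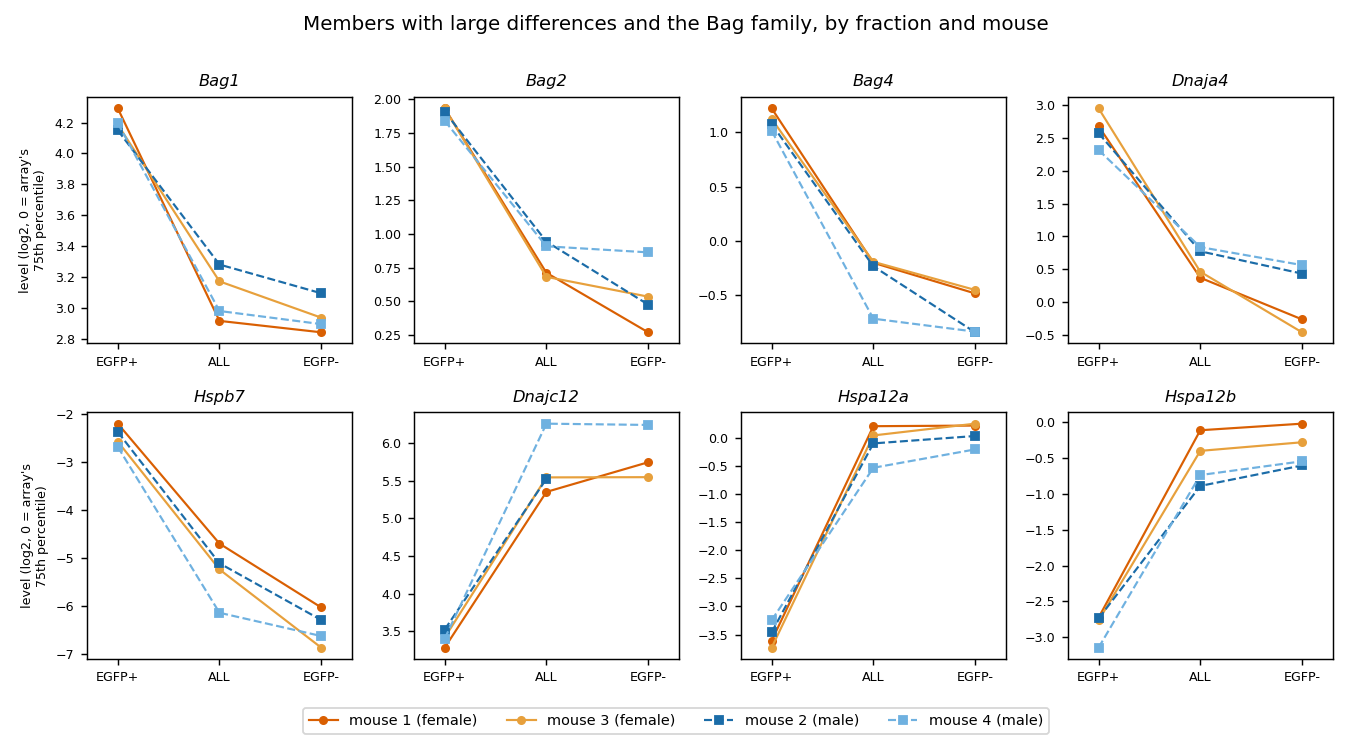
Levels (y axis, log2 relative to the 75th percentile of the array) of Bag1, Bag2, Bag4, Dnaja4, Hspb7, Dnajc12, Hspa12a and Hspa12b in the 3 fractions (x axis), with 1 line per mouse, solid for females and dashed for males. In all 8 genes the EGFP+ arrays stand apart from the EGFP- arrays, and a missing point is a spot marked as an outlier by the scanner software.

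The stress-induced list did not move as a group between the fractions. Of its 9 tested members 1 was higher in EGFP+ than in EGFP- tubules (Dnajb4), 1 was lower (Dnaja1) and 7 did not pass. Of all genes 58.2% passed, with 32.3% higher and 25.9% lower. The median difference of the list was 0.26 beside 0.11 for all genes. Within slides 1, 2 and 3 the median was 0.03, 0.45 and 0.09. With the mouse as a block 3 were higher and 3 lower, and without mouse 4 the count past the threshold went from 2 to 5, with Bag3, Hsp90aa1 and Hspb8 added. Slide 1 sets EGFP+ arrays of mice 1 and 2 against the EGFP- array of mouse 1. Slide 2 sets the EGFP+ array of mouse 3, a female, against the EGFP- array of mouse 2, a male. Slide 3 sets the EGFP+ array of mouse 4 against EGFP- arrays of mice 3 and 4. Values within every slide therefore mix sex and mouse with fraction, those of slide 2 most.

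Hspa1a, the inducible Hsp70 itself, stood at 5.07, 4.23, 4.59 and 4.54 in EGFP+, 4.86, 2.69, 3.93 and 3.29 in ALL and 4.66, 2.77, 4.19 and 3.42 in the EGFP- fraction. The EGFP+ level was the highest of the 3 fractions in each mouse, but the levels of the mice were spread so widely in ALL and EGFP- that the groups overlapped. The difference of 0.85 ± 0.48 did not pass (adjusted p = 0.15, limma), and passed with the mouse as a block (adjusted p = 0.0063). Within slides 1, 2 and 3 it was -0.01, 1.83 and 0.74. All 4 probes named for Hspa1a had differences between 0.85 and 0.999, and for 2 of them, not the probe used here, the array also lists the near-identical Hspa1b. The probe used lies on chromosome 17 at 34577907 to 34577966 (mm8).

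Among the J partners of inducible Hsp70, Dnajb4 was at 2.38, 2.27, 2.48 and 2.26 in EGFP+ and 2.08, 1.39, 1.94 and 1.54 in EGFP- tubules. The groups did not overlap, and the difference was 0.61 ± 0.17 (adjusted p = 0.010, limma). Dnajb1, the classical Hsp40, differed by 0.26 ± 0.15 and passed only with the mouse as a block (adjusted p = 0.16 without it and 0.033 with it, limma). Dnaja1, a J protein of the cytosol, went the other way, with 3.74, 3.52, 3.86 and 3.46 in EGFP+, 4.11, 4.75, 4.16 and 4.69 in ALL and 4.32, 4.90, 4.16 and 4.86 in the EGFP- fraction. Every EGFP+ value of Dnaja1 lay below every value of the other fractions, and the difference was -0.92 ± 0.21 (adjusted p = 0.0027, limma).

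Hsp90aa1, the inducible Hsp90, differed by 0.58 ± 0.30 with no value for mouse 2 in ALL and EGFP- (adjusted p = 0.12, limma). Mouse 2 was male, so males weigh less in the EGFP- mean of Hsp90aa1, and the difference mixes sex with fraction. The same holds for Hsp90b1 and Dnajc12 below. Bag3, the exchange factor that sends clients to autophagy, differed by 0.32 ± 0.13 (adjusted p = 0.058, limma). Bag3 passed under several other settings, with adjusted p = 0.0058 for the mean of its probes. Hsph1, an Hsp110 that recharges Hsp70, differed by 0.04 ± 0.24. The small heat shock proteins Hspb1 and Hspb8, the latter the partner of Bag3, had lower mean levels in EGFP+ tubules. Hspb1 stood at 0.66, 0.24, 0.86 and 0.26 in EGFP+ and 1.66, 0.63, 1.50 and 0.85 in EGFP- tubules, lower in EGFP+ in 4 of 4 mice, yet the groups overlapped because the mice differed. Its difference of -0.66 ± 0.29 did not pass (adjusted p = 0.069, limma), and passed with the mouse as a block (adjusted p = 0.0017) and with the slide as a block (adjusted p = 0.045). Within slides 1, 2 and 3 it was -1.21, 0.23 and -0.92. Hspb8 differed by -0.87 ± 0.36 (adjusted p = 0.055, limma), with adjusted p = 0.041 in the fit with the mouse as a block.

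**Figure D3:**
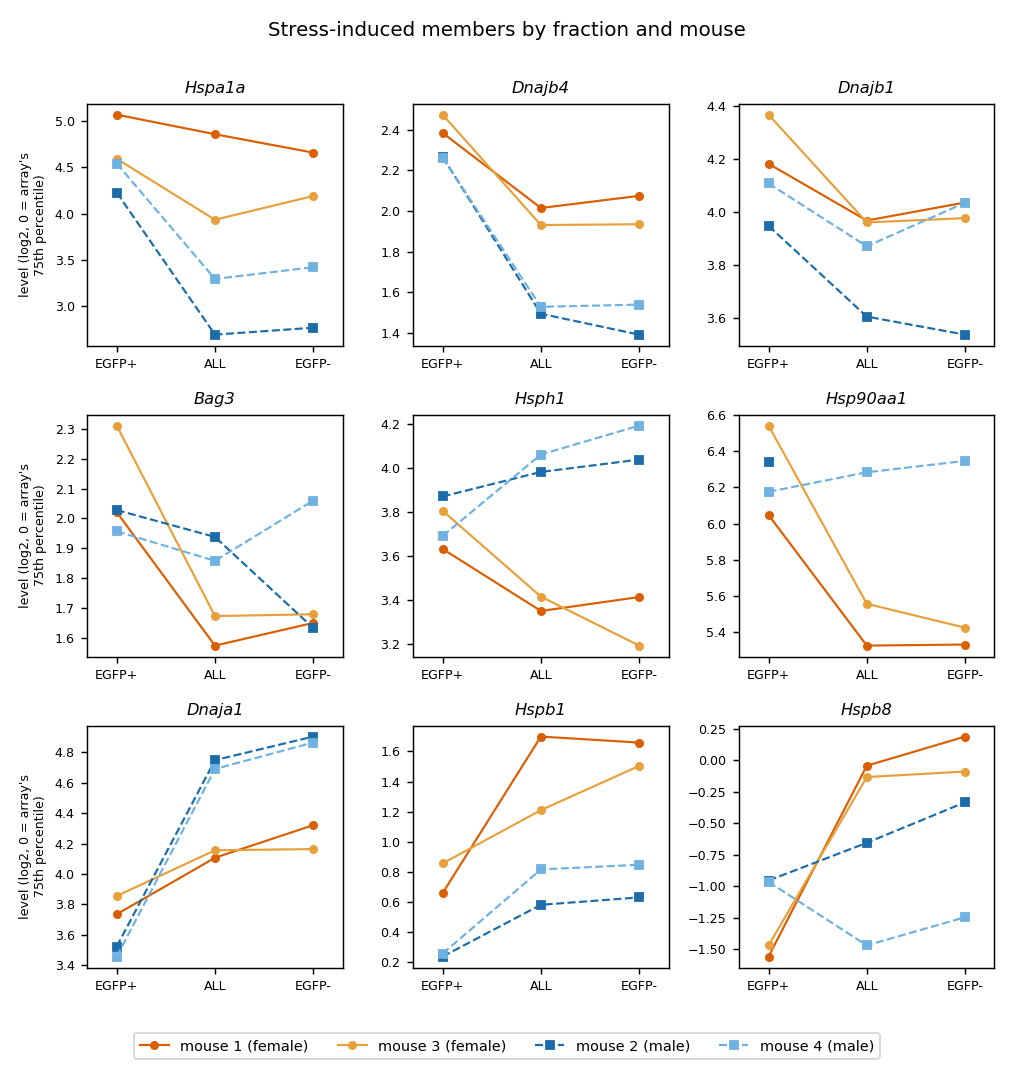
Levels (y axis, log2 relative to the 75th percentile of the array) of the 9 stress-induced members in the 3 fractions (x axis), with 1 line per mouse, solid for females and dashed for males. Hspa1a and Dnajb4 have their highest level in EGFP+ in each mouse and Dnaja1 and Hspb1 their lowest, while for all 9 the mice are spread more widely in EGFP- than in EGFP+.

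The spread among mice was itself uneven. It includes any difference between the sexes, since the mice were 2 females and 2 males. The standard deviation over the 4 mice was larger in EGFP- than in EGFP+ tubules for 9 of 9 stress-induced members, beside 60.3% of all genes, with list medians of 0.48 and 0.18. For Hspa1a it was 0.84 in EGFP- and 0.35 in EGFP+ tubules. Of the 16 constitutive members 12 had the larger spread in EGFP-, and of the 10 endoplasmic reticulum members 6.

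The constitutive members of the cytosol, which fold proteins without stress, had 8 of 16 tested members higher in EGFP+ tubules, 2 lower and 6 that did not pass. All genes were also more often higher than lower (32.3% and 25.9%), and whether the list differs from them was not tested. The median was 0.32, beside 0.11 for all genes. The count fell to 6 in all without mouse 3. Beside the 3 Bag proteins, the Hsp110 relatives Hspa4l (0.82 ± 0.21) and Hspa4 (0.36 ± 0.13) were higher. Hspa4l stood at 1.52, 1.55, 1.76 and 1.32 in EGFP+ and at 0.36, 1.13, 0.42 and 0.98 in EGFP- tubules, with no overlap. It did not pass without mouse 3 (adjusted p = 0.067, limma), and Hspa4 did not pass without mouse 1, 3 or 4 (adjusted p = 0.18, 0.16 and 0.050, limma). Hspa14, an Hsp70 that works at the ribosome, was higher by 0.48 ± 0.16, and did not pass without mouse 2 (adjusted p = 0.082, limma) or mouse 3 (adjusted p = 0.17).

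Of the J proteins in this list, Dnajc7, which hands clients between Hsp70 and Hsp90, was higher by 0.72 ± 0.12, with 3.08, 2.94, 2.75 and 3.23 in EGFP+ and 2.19, 2.25, 2.48 and 2.22 in EGFP- tubules. Dnajc5, the cysteine string protein of secretory vesicles, was higher by 0.50 ± 0.12. Hspa8, the constitutive Hsp70, went the other way. It stood at 5.54, 5.96, 5.74 and 5.81 in EGFP+ and 6.24, 6.14, 6.03 and 6.71 in EGFP- tubules, without overlap. The difference of -0.52 ± 0.20 was at the threshold (adjusted p = 0.045, limma), and no longer passed without mouse 1, 2, 3 or 4 (adjusted p = 0.050 to 0.17) or with arrays centred on their medians (adjusted p = 0.24). Hspa8 had no value for mouse 2 in ALL. Hspa2, an Hsp70 best known from testis, was lower by 1.05 ± 0.14 (the difference was -1.05), at -1.79, -1.60, -1.78 and -1.70 in EGFP+ and -0.59, -0.81, -0.79 and -0.49 in EGFP- tubules. The constitutive Hsp90, Hsp90ab1, differed by 0.26 ± 0.23 and did not pass, with no value for mouse 2 in ALL.

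Of 10 endoplasmic reticulum members tested, 2 were higher in EGFP+ tubules, 1 was lower and 7 did not pass, where 58.2% of all genes passed, and the median was 0.04. Without mouse 1 or mouse 3 none passed, and without mouse 2 just 1 did. Hspa5, the Hsp70 of this compartment known as BiP, stood at 5.01, 5.75, 5.48 and 5.72 in EGFP+, 4.84, 5.85, 4.86 and 5.86 in ALL and 4.82, 5.77, 4.97 and 6.09 in the EGFP- fraction. Its values sorted by mouse more than by fraction, with mice 2 and 4 high in ALL and EGFP-, and the difference between fractions was 0.08 ± 0.34. Hsp90b1, the Hsp90 of the compartment, differed by -0.00 ± 0.27, with no value for mouse 2 in ALL and EGFP-. Dnajb11, a J partner of BiP, differed by -0.03 ± 0.30. Dnajc10, a reductase of disulfide bonds, was higher by 0.41 ± 0.14, and did not pass without mouse 1 (adjusted p = 0.12, limma) or mouse 3 (adjusted p = 0.14). Dnajc16, named after its values were seen, was higher by 0.31 ± 0.12. Dnajb12, a membrane J protein that sends faulty proteins to degradation, was lower (-0.65 ± 0.25, adjusted p = 0.042, limma), and did not pass without mouse 1 (adjusted p = 0.052), mouse 2 (adjusted p = 0.14) or mouse 3 (adjusted p = 0.077).

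Of 8 mitochondrial members tested, 3 were higher in EGFP+ tubules, 2 were lower and 3 did not pass, which is near the shares of all genes (32.3% higher and 25.9% lower). The median was 0.18, and the count went from 5 to 3 without mouse 2 or mouse 3. The lower ones included Hspd1, the Hsp60 barrel that folds imported proteins, between 5.56 and 6.18 in the 4 EGFP+ and between 6.38 and 7.28 in the 4 EGFP- arrays. Its values did not overlap, and the difference was -0.78 ± 0.26 (adjusted p = 0.025, limma), with no value for mouse 2 in ALL. It did not pass without mouse 2 (adjusted p = 0.091, limma) or centred on the median (adjusted p = 0.12). Hspe1, the Hsp10 lid of that barrel, which shares the promoter stretch above, differed by -0.53 ± 0.25 (adjusted p = 0.097, limma) and passed with the mouse as a block (adjusted p = 0.023). Dnajc19, a J protein of the import motor of the inner membrane, stood at 3.73, 3.99, 4.24 and 3.81 in EGFP+ and 4.58, 5.04, 4.71 and 5.36 in EGFP- tubules, a difference of -0.98 ± 0.24. Its relative Dnajc15 went the other way (0.58 ± 0.15), though this was lost without mouse 3 (adjusted p = 0.069, limma). Dnajc11, a J protein linked to the cristae, was higher by 0.83 ± 0.11 and had no overlap. Dnajc4 was higher by 0.55 ± 0.21, and did not pass without mouse 1 (adjusted p = 0.15, limma), mouse 2 (adjusted p = 0.13) or mouse 3 (adjusted p = 0.15). Hspa9, the Hsp70 of the matrix, differed by 0.04 ± 0.19, with no value for mouse 2 in ALL.

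Hspb7, a small heat shock protein known from heart muscle, stood farthest above EGFP- tubules among the tested members, even at its bound. Its levels were -2.21, -2.38, -2.58 and -2.69 in EGFP+, -4.70, -5.11, -5.24 and -6.14 in ALL and -6.03, -6.29, -6.87 and -6.63 in the EGFP- fraction. The probe was well above background on 4 of 4 EGFP+, 3 of 4 ALL and 0 of 4 EGFP- arrays, so that the fold is a bound. A bound sets the EGFP+ mean against the lowest signal called well above background on each EGFP- array, or the signal of the probe where that is higher. Hspb7 was at least 7.27-fold higher in EGFP+ tubules. The adjusted p of 2.0e-07 (limma) belongs to the measured difference, which uses EGFP- signals not well above background, and not to the bound. The probe of Hspb7 lies on chromosome 4 at 140696516 to 140696575 (mm8). A dimmer probe for the gene was well above background on 3 EGFP+, 1 ALL and 0 EGFP- arrays. Of the 5 small heat shock proteins tested, Hspb9 was the one that was lower (-1.27 ± 0.19) and 3 did not pass, where 58.2% of all genes passed. The median of the 5 was -0.66. With the mouse as a block 1 was higher and 3 were lower. Hspb9 did not pass under normexp background correction (-0.28, adjusted p = 0.27, limma).

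The remaining members outside these lists numbered 15 tested, of which 3 were higher, 6 were lower and 6 did not pass, with a median of -0.30. Of all genes 32.3% were higher and 25.9% lower. Dnaja4, a cytosolic J protein close to Dnaja1, had the largest positive difference among J proteins. It stood at 2.68, 2.57, 2.95 and 2.32 in EGFP+, 0.37, 0.77, 0.46 and 0.84 in ALL and -0.26, 0.43, -0.46 and 0.56 in the EGFP- fraction. EGFP+ overlapped with neither of the other fractions, and the gene was 5.90-fold higher (95% confidence interval 4.12 to 8.45, adjusted p = 2.0e-06, limma), with its probe on chromosome 9 at 54514017 to 54514076 (mm8). Its close relative Dnaja1 was the stress-induced member that was lower. Dnajb5, a relative of Dnajb1, was dim throughout and higher by 1.72 ± 0.31, at -2.15, -2.66, -2.51 and -2.37 in EGFP+ and -3.86, -3.84, -3.94 and -4.94 in EGFP- tubules, where 3 of 4 arrays had it well above background. Dnajc9, a chaperone of histones, was higher by 0.82 ± 0.10.

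Hspa12a and Hspa12b, distant relatives of Hsp70, had the largest negative differences. Hspa12a stood at -3.61, -3.46, -3.73 and -3.25 in EGFP+, 0.21, -0.09, 0.05 and -0.53 in ALL and 0.22, 0.04, 0.26 and -0.20 in the EGFP- fraction. It was 12.1-fold lower in EGFP+ (9.24 to 15.8, adjusted p = 1.2e-08, limma), with its probe on chromosome 19 at 58850818 to 58850877 (mm8). Its 4 tested probes did not share a direction. Beside the brightest one, a probe well above background on 2 of 4 EGFP+ arrays and one on 0 of 4 had lower signals there, for which no size is given, and a dim probe had a higher signal (2.39, with 2 of 4 EGFP- arrays well above background). Hspa12b, known from endothelial cells, stood at -2.73, -2.74, -2.77 and -3.15 in EGFP+, -0.11, -0.89, -0.40 and -0.73 in ALL and -0.02, -0.60, -0.28 and -0.54 in the EGFP- fraction. That was 5.60-fold lower (4.18 to 7.49). The endothelial markers moved with it. All 7 of 7 were lower, and their summed level ranged from 1.70 to 2.18 in EGFP+, 4.98 to 5.77 in ALL and 5.27 to 6.01 in EGFP- arrays. All 7 were well above background on the 4 EGFP+ arrays too. Their part in the result was not tested.

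Among the lower J proteins, Dnajc12, which assists the aromatic amino acid hydroxylases, stood at 3.28, 3.52, 3.42 and 3.40 in EGFP+ and at 5.75, 5.55 and 6.24 in EGFP- tubules of mice 1, 3 and 4, with no value for mouse 2. It was 5.42-fold lower in EGFP+ (3.83 to 7.67). The 7 proximal tubule markers were lower as well, and the summed level of the 3 with values on all arrays ranged from 0.30 to 1.65 in EGFP+ and 5.96 to 6.12 in EGFP- arrays. Their part in the result was not tested. Dnajc13, a J protein of endosomes, stood at 0.81, 0.92, 0.78 and 0.96 in EGFP+ and 2.49, 2.83, 2.71 and 2.76 in EGFP- tubules and was 3.56-fold lower (2.89 to 4.38). Hspbap1, a binding partner of Hspb1, was lower (-0.46 ± 0.13), though not without mouse 2 (adjusted p = 0.085, limma) or with arrays centred on their medians (adjusted p = 0.18).

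Dnajc14, a membrane J protein that handles receptors in the endoplasmic reticulum, was the member that separated ALL from EGFP- tubules. It was not on the endoplasmic reticulum list and was counted among the remaining members. Its levels were -0.35, -0.54, -0.60 and -0.62 in EGFP+, -0.29, 0.22, -0.15 and -0.08 in ALL and 0.72, 1.10, 0.81 and 0.75 in the EGFP- fraction. The ALL values lay below all EGFP- values, by -0.92 (adjusted p = 0.0035, limma). No other member passed between ALL and EGFP- (1 of 61, or 1.64%, beside 1.39% of all genes). In that limma fit 3 of 61 members had an unadjusted p below 0.05, beside 4.14% of all genes. Dnajc14 was the 1 gene of all 17071 that was lower in ALL (0.00586%). A second, dimmer probe for Dnajc14 went the other way between EGFP+ and EGFP- (0.45 against -1.37). Without mouse 3, and with the mean of a gene's probes, no member passed between ALL and EGFP- (0 of 61).

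Against ALL, 17 members were higher in EGFP+ tubules and 11 were lower (45.9% of members, beside 55.3% of all genes, of which 30.3% were higher and 24.9% lower). This comparison shares its EGFP+ arrays with the one against EGFP-. Bag4 differed by 1.44 against ALL and 1.76 against EGFP-, Dnaja4 by 2.02 and 2.56, and Hspa12a by -3.42 and -3.59. Hspb7 differed by 2.84 against ALL, where 3 of 4 arrays measured it, and has just the bound given above against EGFP-. The values of 28 members did not overlap between EGFP+ and ALL (45.9%, beside 52.4% of all genes), against 2 members between ALL and EGFP- (3.28%, beside 2.99%), namely Dnajc14 and Dnajc9.

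Over all genes, the share past the threshold between EGFP+ and EGFP- went from 58.2% to 65.3% with the mouse as a block. Among members it went from 50.8% to 67.2%. Of the 30 members that missed the threshold without the block, 10 passed with it. Beside Hspa1a, Hspb1, Hspb8, Dnajb1 and Hspe1 they were Dnajb3 and, named after their values were seen, Dnajc3, Dnajc17, Dnaja3 and Dnajb2. No member differed between males and females after adjustment (0 of 61, beside 1.07% of all genes, limma on 4 mouse means). Of the 61 members, 18 had an unadjusted p below 0.05, a larger share than the 20.1% of all genes. Whether the shares differ was not tested. The members with the smallest adjusted p were Dnajb3 (-1.21 ± 0.16 for males minus females, adjusted p = 0.068, limma), Hspa5 (0.84 ± 0.14, adjusted p = 0.097), Dnajc2, a J protein at the ribosome (0.69 ± 0.11), Dnajb11 (0.71 ± 0.13) and Hspb1 (-0.70 ± 0.13). With 2 mice of each sex, differences between sexes rest on few animals.

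Dnajb3 showed the clearest split. It stood at -1.38, -1.22, -1.26 and -1.02 in EGFP+, -1.16, -3.30, -1.53 and -3.00 in ALL and -1.19, -3.54, -1.52 and -3.22 in the EGFP- fraction. All EGFP+ arrays and the female arrays of ALL and EGFP- were alike, and the 4 male arrays of ALL and EGFP- stood apart, lower. The EGFP+ minus EGFP- difference was 0.04 on average in females and 2.26 in males. The difference between them, 2.22 ± 0.25, did not pass after adjustment (adjusted p = 0.13, unadjusted p = 4.1e-04, limma), as was so for all 17070 genes tested in this way (0%). Among the 61 members 10 had an unadjusted p below 0.05, a larger share than the 12.1% of all genes. Each fraction has 1 slide that holds both sexes, and there males minus females was 0.16 in EGFP+, -1.77 in ALL and -1.70 in the EGFP- fraction. The probe lies on chromosome 1 at 90035907 to 90035966 (mm8), and in the GRCm38.p6 gene order Dnajb3 sits within the Ugt1a family of drug-conjugating enzymes.

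Endoplasmic reticulum members were mostly higher in males, and stress-induced members went both ways. In ALL, both males lay above both females for 7 of 9 endoplasmic reticulum members with complete values, beside 35.4% of all genes. In EGFP- it was 7 of 9, beside 32.8%, and in EGFP+ 4 of 10, beside 13.9%. The male excess in ALL and EGFP- was not particular to this list. In ALL, it held for 5 of 6 mitochondrial members and 32 of 55 members in all, among those with complete values. In EGFP- it was 6 of 8 and 29 of 58, and in EGFP+ 1 of 8 and 11 of 61, beside the same shares of all genes. Hspa5 in males exceeded that in females by 0.49 in EGFP+, 1.004 in ALL and 1.03 in the EGFP- fraction, and by 0.73, 0.99 and 1.12 within the slide that holds both sexes. Of the stress-induced members, both males lay below both females for 5 of 9 in EGFP+, 5 of 8 in ALL and 4 of 8 in EGFP- tubules, beside 17.5%, 25.6% and 26.4% of all genes. Both males lay above both females for 1 of 9, 3 of 8 and 2 of 8, beside 13.9%, 35.4% and 32.8%. Hspa1a in males minus females was -0.45, -1.41 and -1.33 in EGFP+, ALL and EGFP- tubules, and -0.84, -1.24 and -0.77 within slides. Hsph1 went the other way in ALL (0.64) and EGFP- (0.81), as did Dnaja1 (0.59 and 0.64), Bag3 (0.27 and 0.18) and Hsp90aa1 (0.84 and 0.97, with no value for mouse 2). None of these passed after adjustment.

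**Figure D4:**
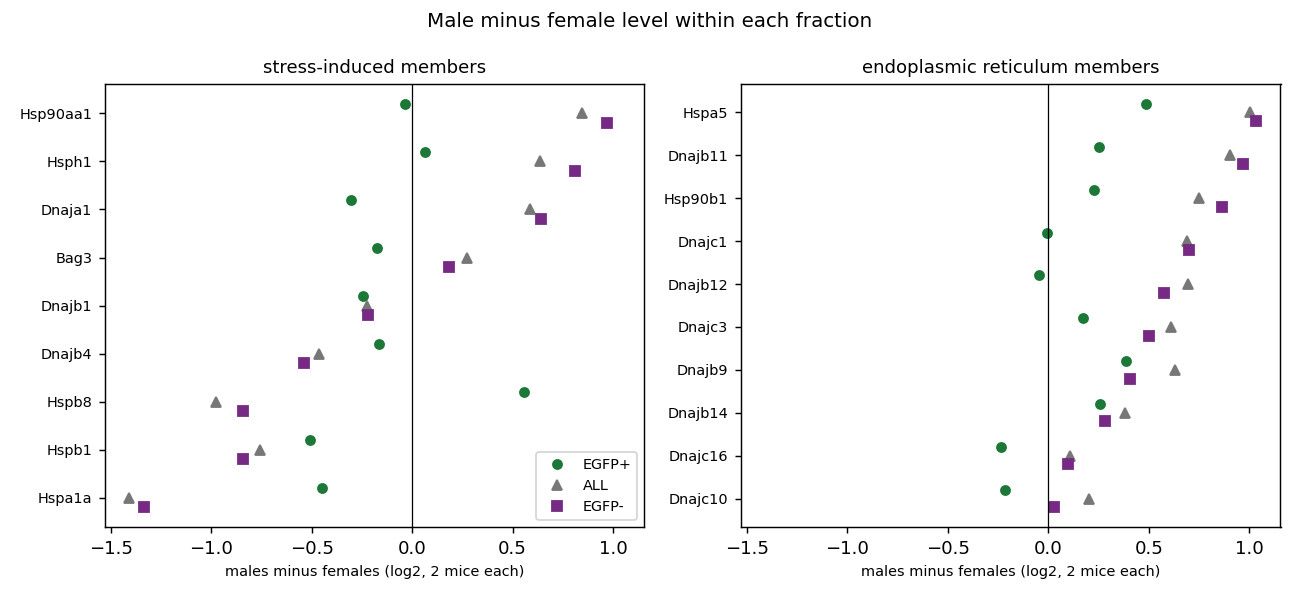
Mean level of the 2 males minus that of the 2 females (x axis, log2) for the stress-induced members (left) and the endoplasmic reticulum members (right), with 1 marker per fraction. Hspa5 has the largest excess in males among the endoplasmic reticulum members in all 3 fractions, and Hspa1a, Hspb8 and Hspb1 the largest deficits among the stress-induced members in ALL and EGFP-.

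Genes of the same pathways that do not carry these names were examined as lists, each to be read beside the 32.3% of all genes that were higher and the 25.9% that were lower. Hsf1, the factor that switches on the stress-induced members, had levels of 2.43 ± 0.75 (SD, n = 4) in EGFP+ and 2.24 ± 0.42 in EGFP- tubules and did not pass (0.19 ± 0.38, adjusted p = 0.69, limma). Of 16 heat shock factors and cytosolic cofactors tested 2 were higher, 1 was lower and 13 did not pass, with a median of 0.01. Fkbp5, a glucocorticoid-induced partner of Hsp90, was higher by 1.50 ± 0.53. Its difference was 2.59 and 2.58 in the females and 0.43 and 0.42 in the males, so the mean describes neither sex. The difference between the sexes did not pass after adjustment (adjusted p = 0.086, limma). Unc45a, a partner of Hsp90 for myosin, was higher by 0.53 ± 0.10, and St13, which binds Hsp70, was lower (-0.59 ± 0.17). Of the 8 chaperonin subunits 1 was lower, Cct6a (-0.65 ± 0.16), and none was higher.

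Of 16 folding and stress genes of the endoplasmic reticulum 2 were higher, 1 was lower and 13 did not pass, with a median of 0.06. Serpinh1, the collagen chaperone, was higher by 0.58 ± 0.10 and the stress factor Xbp1 by 0.55 ± 0.18, and Herpud1, which serves degradation, was lower (-1.33 ± 0.22). Of 6 mitochondrial folding genes 2 were lower, the protease chaperone Clpx (-1.24 ± 0.18) and Grpel2 (-1.05 ± 0.32), a nucleotide exchange factor of Hspa9. For Grpel2 the difference was -0.46 on average in females and -1.64 in males, which did not pass between the sexes after adjustment. The list of immediate early genes holds 12 genes, which, Hmox1 aside, answer handling of tissue within minutes. Hmox1 is a stress enzyme and not an immediate early gene. The 12 did not move together, with 3 higher, 2 lower and 7 that did not pass. Ier3 was higher by 4.13 ± 0.32, Btg2 by 1.69 ± 0.38 and Fos by 1.08 ± 0.42, and Hmox1 (-1.08 ± 0.39) and Dusp1 (-0.51 ± 0.19) were lower. The part of tissue handling and sorting in the levels of the stress-induced members was not tested.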

How the data were processed

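The deposited scanner files of the 12 arrays (Agilent design 014868, read with Feature Extraction 9.5.3.1, per the file headers) hold the processed signal, mean signal and background of each spot, intensities on a linear scale. The processed intensity had been background-corrected by that software, per the file headers. Per the labels, RNA was amplified and labelled with Cy3. A value table the authors deposited, intensities as well, was not used, because each of its 12 columns matched another fraction of the same mouse.

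From the intensities, log2 levels were taken minus the 75th percentile of each array. Spots marked as outliers were left out (9 member values), spots of a probe were averaged, a probe was tested where 4 or more of the 12 arrays had it well above background, and each of 17071 genes was represented by its brightest tested probe. A value is missing on 1 or more arrays for 445 genes. limma 3.58.1 in R 4.3.3 fitted 1 coefficient per fraction over all arrays, with Benjamini-Hochberg adjustment and a threshold of 0.05. The steps were tested on simulated data. Sex was tested on mouse means. Errors are SE for differences and SD for levels. Probes keep mm8 coordinates, per the file headers. Where several tested probes served a gene (34 members), 28 shared 1 direction.

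Fractions with 1 mouse number come from 1 animal, per the labels. Deviations from the fraction means correlated at 0.23 to 0.82 within a mouse (12 pairs) and at -0.68 to 0.59 between mice (36 pairs), so the mouse as a block is given where it changes a call. Arrays lay on 3 slides, each holding more than 1 fraction. The named members were all tested stress-induced, Hspa, Hsp90 and Bag genes with Hspd1 and Hspe1, up to 10 others with the largest change past the threshold each way (10 were higher and 7 lower), and the 5 with the smallest adjusted p between sexes. Of pathway genes, Hsf1 and up to 3 each way were named. Members and lists were chosen with earlier results of these data known. Alternatives tried were other scalings, background correction, filters on dim probes, the mean of probes, slide and mouse blocks, fewer fractions and leaving out each mouse.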

Additional observations from a re-analysis of the deposited data

Results flagged for a closer look

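In 129 groups of 4 arrays of the named members, 6 had 1 array set apart from the other 3 by a gap of more than 0.829 of the range of the group. Chance sets about 1 in 20 groups apart in this way. Bag3 in EGFP- tubules stood at 2.06 in mouse 4, with the others between 1.63 and 1.68. Bag4 in ALL stood at -0.71 in mouse 4, with the others between -0.23 and -0.19. Dnajb5 in EGFP- stood at -4.94 in mouse 4, with the others between -3.94 and -3.84. Hspa12b in EGFP+ stood at -3.15 in mouse 4, with the others between -2.77 and -2.73. Dnajb1 in EGFP- stood at 3.54 in mouse 2, with the others between 3.98 and 4.04. Hsp90ab1 in EGFP+ stood at 6.18 in mouse 1, with the others between 6.48 and 6.53. The ALL and EGFP- arrays of mouse 4 had the lowest 75th percentiles, 922.2 and 1007.2.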

How the results depend on the processing

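The counts of members that differed between EGFP+ and EGFP- tubules (22 to 41, against 31) and between EGFP+ and ALL (20 to 38, against 28), and the median differences of the stress-induced (0.15 to 0.41) and constitutive members (0.25 to 0.48), stayed within 1.5 times the count, or within the spread between mice for the medians, under all 13 alternatives. The replicate block (mouse) gave 41 and 38, and leaving out mouse 3 gave the lowest counts. Between ALL and EGFP- the count of 1 became 2 with arrays centred on the median, with quantile normalization, with the slide as a block and with the replicate block, 0 with the mean of a gene's probes, and 0 to 2 on leaving out a mouse. Between the sexes the count of 0 became 1 centred on the median, 1 with normexp background correction and 3 with probes well above background on all 12 arrays. Leaving out a mouse there leaves 1 mouse of a sex, assumed to vary like the others. Of 30 named members past the threshold between EGFP+ and EGFP-, 19 remained so under every alternative that tested them, and of 16 that were not, 8 never passed. The cause of these changes was not tested. Among the lists, the stress-induced count of 2 became 4 with quantile normalization, 5 with the slide and 6 with the mouse as a block. The endoplasmic reticulum count of 3 became 0 with no filter on dim probes and 1 with normexp, and the small heat shock protein count of 2 became 4 with either block and 1 with normexp. Centring on the median moved the median difference of all genes from 0.11 to 0.26, and with it the share of higher calls from 55.6% to 62.7%. Slide blocks, mouse blocks and single fits of 2 fractions were not run between the sexes.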

Other observations

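Relatives of the set that the array lists under older names also differed in both directions. Of 11 such genes tested, 3 were higher in EGFP+ than in EGFP- tubules, 1 was lower and 7 did not pass (limma). Of all genes 32.3% were higher and 25.9% lower. Dnajc28 differed by 1.06 ± 0.12, Dnajc27 by 1.01 ± 0.15 and Hspa13, an Hsp70 of the endoplasmic reticulum, by 0.58 ± 0.22. Dnajc22, a membrane J protein, was lower by more than any member of the set, with a difference of -5.29 ± 0.67 (adjusted p = 3.2e-05, limma). Its levels were -3.46, -1.03, -3.48 and -1.67 in EGFP+, 1.90, 3.59, 1.96 and 3.62 in ALL and 2.18, 3.62, 1.96 and 3.75 in EGFP- tubules of mice 1, 2, 3 and 4. Males lay above females in every fraction, by 1.80 ± 0.12 (adjusted p = 0.021, limma). The summed proximal tubule markers ranged from 0.30 to 1.65 in EGFP+ and 5.96 to 6.12 in EGFP- arrays, and their part in the result was not tested.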
